A study of Caenorhabditis elegans with 12 samples.

Results

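The strain by salt interaction is the difference between the responses of *osm-9(ok1677)* mutant worms and of wild type worms to high NaCl. It was taken over all 12 libraries of the series, as the log2 difference between 200 mM and 51 mM NaCl in *osm-9(ok1677)* worms minus the same difference in N2 worms, and it could be tested at 15383 of the 41420 gene loci listed. A negative interaction means that a transcript responded to salt less positively, or more negatively, in *osm-9(ok1677)* worms than in N2 worms. The comparison addresses which classes of genes respond to salt in opposite ways, or to a different extent, when osmotic avoidance is defective.

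The study sequenced polyadenylated RNA from whole late L4 *C. elegans* after 6 h on growth plates. There were 4 libraries of *osm-9(ok1677)* worms at 200 mM NaCl, 4 of *osm-9(ok1677)* worms at 51 mM NaCl, 2 of N2 worms at 200 mM NaCl and 2 of N2 worms at 51 mM NaCl. The mutant is strain VC1262, which carries a deletion in *osm-9*, and the wild type is N2 Bristol, so the deletion and any other difference between these strains cannot be told apart. Per the study's methods, the mutant developed slightly more slowly, staging allowed for this, and worms were moved to the plates before the quiescence that precedes the last molt.

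*osm-9* encodes a TRPV cation channel of the ASH osmosensory neurons and other chemosensory neurons. Worms in a hypertonic environment lose water, then make and retain the organic osmolyte glycerol, and the epidermis switches on genes for glycerol synthesis and for antimicrobial peptides. The same epidermis secretes the collagen cuticle, which is rebuilt at each molt by genes whose transcripts rise and fall with the molting cycle, and loss of the collagens of its annular furrows is known to activate osmotic and antimicrobial genes.

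Libraries held 15949889 to 21184479 counts once the ribosomal RNA locus *rrn-3.1* was set aside. That locus had 0 counts in all 4 *osm-9(ok1677)* libraries at 51 mM and 136083 to 280789 counts in the other 8 libraries. A count of 0 allowed a level of up to 0.138 to 0.187 CPM (counts scaled to a common library total), the level of 3 counts in a library; this limit covers counting error only. Counts over the *osm-9* gene did not test the labels, since gene totals do not show the deleted part. They were 34, 25, 41 and 38 in *osm-9(ok1677)* at 200 mM and 41, 42, 50 and 25 at 51 mM, and 24 and 36 in N2 at 200 mM and 17 and 14 at 51 mM.

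No locus passed an adjusted p of 0.05 for the interaction with edgeR's quasi-likelihood test, in either direction (0% of the loci tested), and the lowest adjusted p was 0.997. At an unadjusted p of 0.05 or less, the interaction was positive at 129 loci (0.839%) and negative at 147 (0.956%), 276 in all (1.79%). If no locus differed, 769.2 loci would be expected at that threshold, so the 276 of this fit are no excess. Why they were fewer was not tested. DESeq2 called 3 loci with a positive interaction (0.0195%) and 2 with a negative one (0.013%). The 2 libraries of a strain that share a replicate number deviated together from their group means. They were taken as pairs for this reason, and the pairing itself was not tested. With the replicate number as a block within each strain, edgeR called 4 loci with a positive interaction (0.026%) and 3 with a negative one (0.0195%), at a lowest adjusted p of 0.0171. The number of loci called with the block depended on the pairs of both strains. Without *osm-9(ok1677)* replicate pair 1, 2, 3 or 4, the block fit called 35, 6, 55 or 76 loci in both directions together. Without an N2 pair, 1 N2 library a salt is left. The lone N2 pair is then assumed to vary like the mutant pairs, so the counts of those fits are not compared here. At the median locus, the 95% interval of the interaction reached 0.811 log2 units to either side without the block and 0.438 with it.

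Loci that passed the test for a response to salt had the same direction in both strains. In *osm-9(ok1677)* worms 33 loci rose (0.215%) and 20 fell (0.13%) at 200 mM relative to 51 mM. In N2 worms 13 loci rose (0.0845%) and 17 fell (0.111%). All 53 loci that changed in *osm-9(ok1677)* had the same sign in N2, and all 30 that changed in N2 had the same sign in *osm-9(ok1677)*. The 15 loci called in both strains made up 28.3% of the *osm-9(ok1677)* calls and 50% of the N2 calls. The *osm-9(ok1677)* response was the smaller of both at 28 of the 30 loci called in N2 and at 23 of the 53 called in *osm-9(ok1677)*; since calling a locus in one strain favours a large response there, these counts describe the calls only. Over all 15383 loci the responses of the strains correlated weakly (Pearson r = 0.32, Spearman rho = 0.23), and 6217 loci (40.4%) had opposite signs. These values describe loci that share the same libraries and are not independent.

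**Figure D1:**
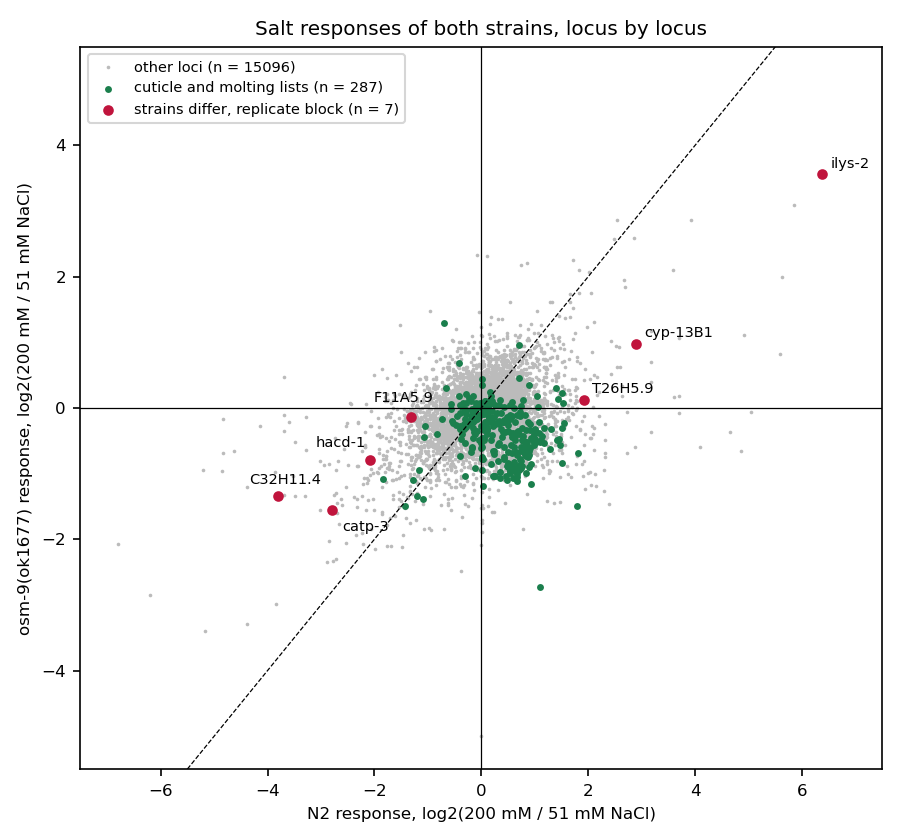
Response to salt (log2 of 200 mM over 51 mM NaCl) in osm-9(ok1677) worms against that in N2 worms, with 1 point for each of the 15383 loci tested and the cuticle and molting loci and the loci called with the replicate block marked. The 7 loci called with the replicate block lie in the quadrants of equal sign, whereas 175 of 287 cuticle and molting loci lie where N2 is above 0 and osm-9(ok1677) is below 0.

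Most of the genes that build the cuticle and drive molting had responses of opposite sign in the strains when all libraries were fitted together. Of the 287 loci tested from the cuticle and molting lists, 175 (61.0%) had a positive response in N2 and a negative response in *osm-9(ok1677)*, against 3532 (23%) of all loci tested and 22.2% of the other loci. Their median response was -0.34 in *osm-9(ok1677)* and 0.32 in N2, with a median interaction of -0.65 against -0.01 over all loci tested. The sign pattern was not particular to these lists. It held for 83.3% of 12 body wall muscle markers and 66.7% of 12 neuronal markers. It also held for 65.5% of 29 FMRFamide-like peptide genes and 58.1% of 31 major sperm proteins. Median interactions there were smaller in size, at -0.25, -0.13, -0.28 and -0.09. None of the oocyte and eggshell genes or intestine markers had it. None of the 287 passed the adjusted threshold for the interaction, with or without the replicate block. At an unadjusted p of 0.05 or less, 15 had a negative and 2 a positive interaction, and with the replicate block 122 had a negative and 6 a positive one, where all loci tested had 959 (6.23%) and 491 (3.19%). The response of every *osm-9(ok1677)* replicate pair was below that of both N2 pairs at 93 of these loci (32.4%), against 1605 of all loci tested (10.4%), and above both at 8, against 1202 (7.81%). With the replicate block, 47 of them fell and none rose in *osm-9(ok1677)* (all loci: 310 rose, 2.02%, and 487 fell, 3.17%), and 9 rose and 4 fell in N2 (all loci: 227 rose, 1.48%, and 271 fell, 1.76%). Here and in later lists, such counts rest on 4 pairs in *osm-9(ok1677)* and 2 in N2, so they do not compare the strains.

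The size of this opposition rested on 1 N2 library, and the opposite sign of the medians over the 287 loci rested on 1 N2 pair. Without N2 replicate 2 at 200 mM, the median interaction over the 287 loci was -0.12, and without N2 replicate 1 at 200 mM it was -0.94. By replicate pair, the median response was -0.08, -0.5, -0.38 and -0.14 in *osm-9(ok1677)* and -0.1 and 0.49 in N2, so the positive N2 median came from the second pair. Replicates 2 and 3 of *osm-9(ok1677)* stood apart at both salts. The summed level of the 15 named collagens outside the furrows was 537, 2300, 3560 and 1340 CPM in *osm-9(ok1677)* at 200 mM and 831, 5210, 6480 and 1620 CPM at 51 mM, against 587 and 1690 CPM in N2 at 200 mM and 661 and 721 CPM at 51 mM. The 6 vitellogenins, the yolk proteins of adults, ran the other way, with summed levels of 35600, 14500, 8090 and 30200 CPM in *osm-9(ok1677)* at 200 mM and 29000, 14700, 9340 and 33700 CPM at 51 mM, against 42300 and 37100 CPM in N2 at 200 mM and 45100 and 39800 CPM at 51 mM. The part that developmental stage had in the cuticle values was not tested. Without *osm-9(ok1677)* replicates 2 and 3, an alternative chosen after seeing the data, the median interaction was -0.34. In RNA from whole worms, fewer cells of a type and less RNA per cell cannot be told apart.

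**Figure D2:**
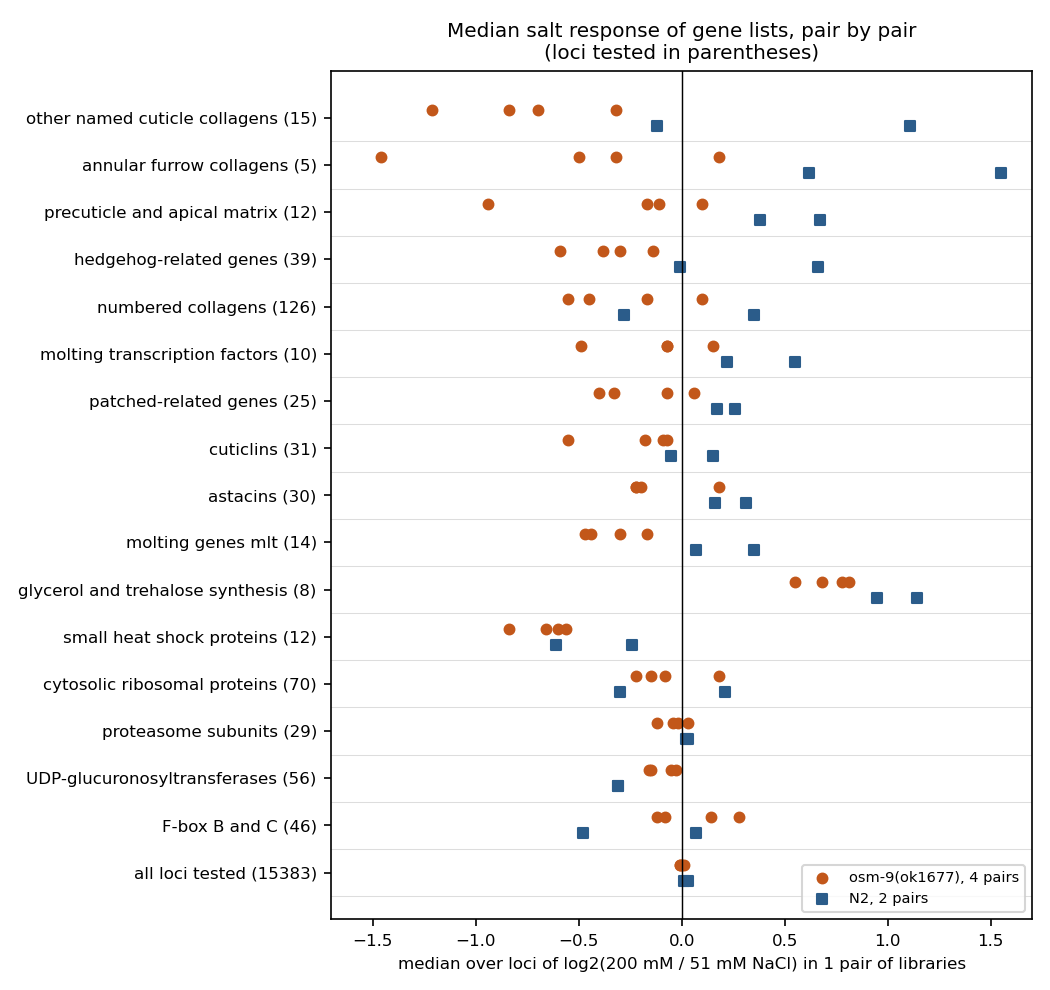
Median response to salt (log2) of each gene list in each replicate pair, with the 4 osm-9(ok1677) pairs and the 2 N2 pairs as separate symbols. The annular furrow and precuticle lists have both N2 pairs above all osm-9(ok1677) pairs and above 0. So do the patched-related, mlt, molting transcription factor, and glycerol and trehalose synthesis lists. For the named collagens outside the furrows the N2 pairs are at -0.12 and 1.11.

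The 5 annular furrow collagens, which shape the circumferential grooves of the cuticle, all had a positive response in N2 and a negative one in *osm-9(ok1677)*. Their median interaction was -1.33, and the mutant pair responses were below both N2 pairs at all 5 loci (all loci tested: 10.4%). The median stayed between -1.8 and -0.98 when each library was left out in turn. *dpy-10* had 12.5, 31.1, 42.4 and 18.5 CPM in *osm-9(ok1677)* at 200 mM and 30.4, 37.6, 37.5 and 23.1 CPM at 51 mM, against 7.67 and 10.8 CPM in N2 at 200 mM and 4.96 and 3.2 CPM at 51 mM. Its interaction was -1.48 ± 0.6 (SE; edgeR adjusted p = 1; with the replicate block -1.57, adjusted p = 0.146). Every *osm-9(ok1677)* library was above every N2 library, and the gap between the strains was wider at 51 mM. *dpy-3* had an interaction of -1.92 ± 0.83 and *dpy-9* of -1.33 ± 0.6 (SE), neither past the threshold. As a list, the furrow collagens were 2.95 log2 units higher in *osm-9(ok1677)* than in N2 at 51 mM and 1.44 higher at 200 mM (medians). These strain differences use the same libraries as the interaction and add no separate evidence.

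The 12 genes of the precuticle and apical extracellular matrix, the layer that precedes the collagen cuticle, had a median interaction of -1.04, with a median response of -0.33 in *osm-9(ok1677)* and 0.71 in N2. Of them, 10 were positive in N2 and negative in *osm-9(ok1677)*, and the mutant pair responses were below both N2 pairs at 8 and above both at 1 (all loci tested: 10.4% and 7.81%). The lipocalin-related gene *lpr-3* had 17.6, 47.6, 80.2 and 29.9 CPM in *osm-9(ok1677)* at 200 mM and 54.1, 61.1, 63.4 and 39.1 CPM at 51 mM. In N2 it had 17.5 and 22.3 CPM at 200 mM and 6.86 and 7.08 CPM at 51 mM, for an interaction of -1.83 ± 0.65 (SE; edgeR adjusted p = 1; with the block -1.99, adjusted p = 0.0764). Both N2 libraries at 200 mM were above both at 51 mM, while the mutant groups overlapped. *noah-1*, a zona pellucida domain protein of the epidermal apical matrix, had 54.9, 91, 157 and 61.2 CPM in *osm-9(ok1677)* at 200 mM and 113, 131, 140 and 76.1 CPM at 51 mM, against 37 and 47.4 CPM in N2 at 200 mM and 19.8 and 22.5 CPM at 51 mM. Its interaction was -1.33 ± 0.53 (SE; with the block -1.41, adjusted p = 0.0621), and that of the fibrillin-related *fbn-1* was -0.91 ± 0.39 (SE). The precuticle median moved little when libraries were left out, between -1.3 and -0.87.

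The other collagens followed the same order but depended more on single libraries. The 15 named collagens outside the furrows had a median interaction of -1.57, with medians of -0.88 in *osm-9(ok1677)* and 0.63 in N2, and the median was -2.06 without N2 replicate 1 at 200 mM and -0.63 without N2 replicate 2 at 200 mM. *dpy-5*, a collagen needed for normal body length, had 60.4, 311, 473 and 163 CPM in *osm-9(ok1677)* at 200 mM and 87.7, 729, 871 and 186 CPM at 51 mM, against 61.5 and 189 CPM in N2 at 200 mM and 63.5 and 72.1 CPM at 51 mM. In N2, replicate 1 at 200 mM thus lay close to its own 51 mM partner, and replicate 2 at 200 mM was the one high library. The interaction of *dpy-5* was -1.78 ± 1.27 (SE), that of the strut collagen *bli-1* -1.62 ± 0.98 (SE) and that of *bli-6* -1.57 ± 1.02 (SE). The 126 numbered collagens had a median interaction of -0.72, and 75 were positive in N2 and negative in *osm-9(ok1677)*; the mutant pair responses were below both N2 pairs at 19 of them (15.1%, against 10.4% of all loci tested) and above both at 5, and the median was -1.07 without N2 replicate 1 at 200 mM and 0.03 without N2 replicate 2 at 200 mM. *col-149* went the other way, with 209, 192, 181 and 162 CPM in *osm-9(ok1677)* at 200 mM and 220, 243, 240 and 197 CPM at 51 mM, against 194 and 323 CPM in N2 at 200 mM and 415 and 655 CPM at 51 mM. Its interaction was 0.77 ± 0.31 (SE; edgeR adjusted p = 1; with the block 0.78, adjusted p = 0.0541).

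**Figure D3:**
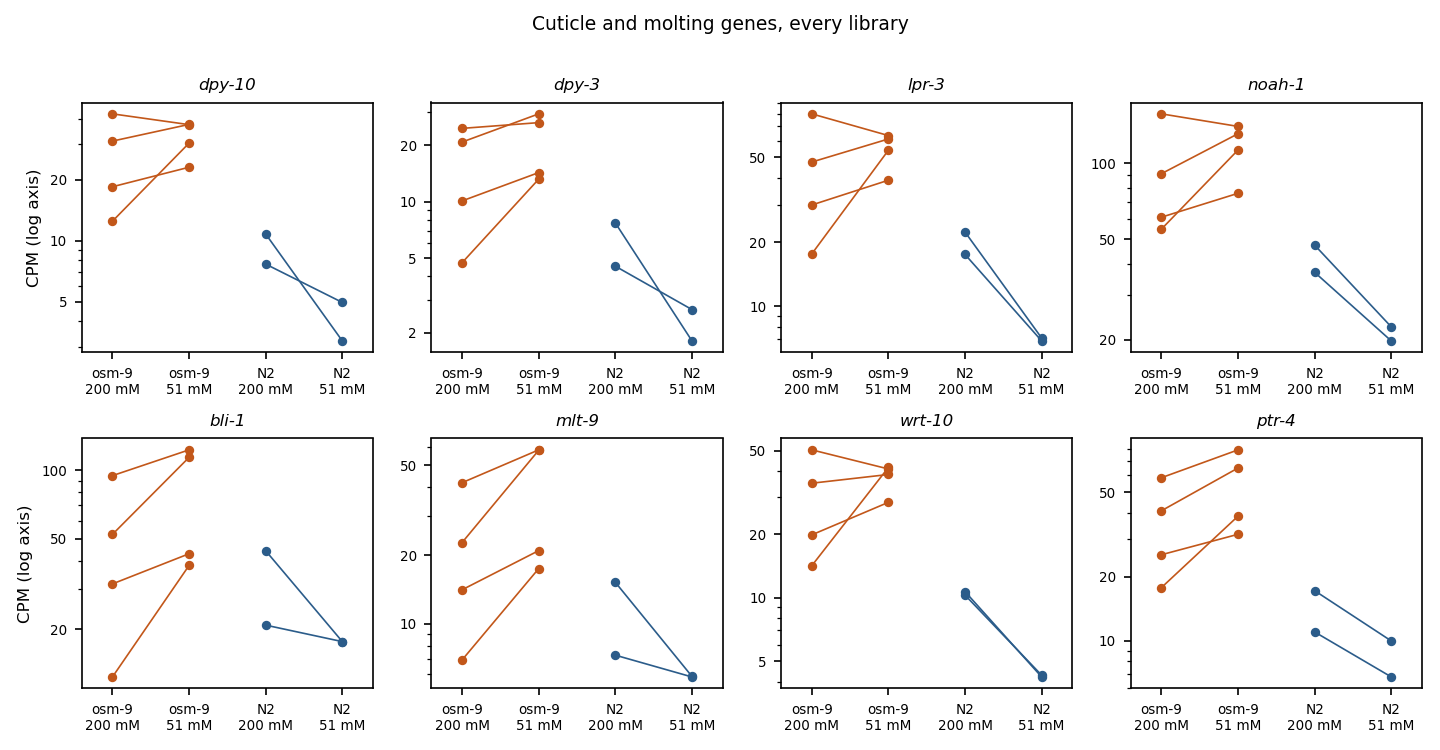
CPM on a log axis of cuticle and molting genes in each library, with osm-9(ok1677) at 200 mM and 51 mM left of N2 at 200 mM and 51 mM. For dpy-10, lpr-3 and noah-1 both N2 libraries at 200 mM lie above both at 51 mM, whereas the osm-9(ok1677) libraries at the 2 salts overlap.

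Lists of genes that regulate or accompany molting had median interactions of the same sign. Of the 39 hedgehog-related genes, which encode secreted proteins made largely by the epidermis, 24 were positive in N2 and negative in *osm-9(ok1677)*, with a median interaction of -0.88 that was -1.27 without N2 replicate 1 at 200 mM and -0.21 without N2 replicate 2 at 200 mM. *wrt-10* had 14.2, 35, 50.4 and 19.9 CPM in *osm-9(ok1677)* at 200 mM and 41.6, 38.5, 40.9 and 28.4 CPM at 51 mM, against 10.7 and 10.3 CPM in N2 at 200 mM and 4.21 and 4.29 CPM at 51 mM, an interaction of -1.62 ± 0.57 (SE; edgeR adjusted p = 1). Both N2 pairs gave like responses for this gene. The 25 patched-related genes, membrane proteins of the family of hedgehog receptors, had a median interaction of -0.52 with the mutant pair responses below both N2 pairs at 11 and above at none (all loci tested: 10.4% and 7.81%); among them *ptr-4*, needed for molting, was at -1.34 ± 0.67 (SE; with the block -1.37, adjusted p = 0.0541). The 14 *mlt* and related molting genes had a median of -0.38, with *mlt-9* at -1.8 ± 0.96, *mlt-8* at -1.44 ± 0.92 and *acn-1* at -1.35 ± 0.7 (SE). The 10 molting transcription factors had a median of -0.65, with the nuclear receptor *nhr-85* at -0.7 ± 0.3 and *nhr-23*, a main regulator of molting, at -0.29 ± 0.18 (SE). Cuticlins had a median of -0.45 over 31 loci, astacin metalloproteases -0.42 over 30 and collagen processing enzymes -0.33 over 11. Without N2 replicate 2 at 200 mM these medians were -0.1 for the *mlt* genes, -0.19 for the transcription factors, -0.06 for cuticlins, -0.01 for astacins and -0.02 for the processing enzymes.

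Outside these lists, the 10 loci with a negative interaction that were named by their p included 2 cadherins, *cdh-7* and *cdh-10*. Their N2 responses were 1.52 ± 0.28 and 0.88 ± 0.21, and their mutant responses were near 0, at -0.18 ± 0.17 and -0.13 ± 0.14 (SE). Mutant pairs went both ways for each gene. *cdh-7*, a member of the cadherin family of cell adhesion proteins, had 15.6, 17.4, 19.4 and 16 CPM in *osm-9(ok1677)* at 200 mM and 26.4, 16.2, 18.6 and 16.2 CPM at 51 mM. In N2 it had 4.01 and 4.74 CPM at 200 mM and 1.45 and 1.6 CPM at 51 mM. The interaction was -1.69 ± 0.33 (SE), which passed the threshold with DESeq2 (adjusted p = 0.0323) but not with edgeR (adjusted p = 1; with the block -1.67, adjusted p = 0.0621). The mutant libraries at the 2 salts overlapped, the N2 libraries did not, and every mutant library was above every N2 library. *cdh-10*, another cadherin, had 34.1, 40.5, 52.4 and 43.2 CPM in *osm-9(ok1677)* at 200 mM and 46.7, 49.1, 50.4 and 39.4 CPM at 51 mM, against 11.2 and 13.9 CPM in N2 at 200 mM and 6.86 and 6.77 CPM at 51 mM, an interaction of -1.0 ± 0.25 (SE; edgeR adjusted p = 1).

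*lpr-6*, a lipocalin-related gene that follows *lpr-3* on the same strand of chromosome X (X:11059994-11061871, WBcel235), had an interaction of -1.82 ± 0.54 (SE). Its levels were 12.7, 27.4, 35.9 and 18.1 CPM in *osm-9(ok1677)* at 200 mM and 31.9, 34.2, 28.1 and 18.5 CPM at 51 mM, against 7.1 and 8.06 CPM in N2 at 200 mM and 2.91 and 2.22 CPM at 51 mM. The uncharacterized gene *C09F9.2* had 18.4, 25.4, 37.1 and 18.9 CPM in *osm-9(ok1677)* at 200 mM and 32.2, 39, 41.4 and 21.2 CPM at 51 mM, against 8.39 and 10.1 CPM in N2 at 200 mM and 4.41 and 4.08 CPM at 51 mM, an interaction of -1.54 ± 0.45 (SE; edgeR adjusted p = 1; with the block -1.55, adjusted p = 0.0526). Both N2 pairs were higher at 200 mM for both genes, while the mutant was lower at 200 mM in 3 of 4 pairs for *lpr-6* and in 4 of 4 for *C09F9.2*. The claudin-like gene *clc-19* had an interaction of -2.22 ± 0.63 (SE). *F41E6.8* had 0 counts in both N2 libraries at 51 mM and 3 and 5 counts in those at 200 mM, too few for a fold change, against 9, 8, 12 and 10 counts in *osm-9(ok1677)* at 200 mM and 14, 8, 13 and 6 counts at 51 mM. The insulin-like peptide gene *ins-11* was likewise at 0 in both N2 libraries at 51 mM.

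Of the 10 loci with a positive interaction that were named by their p, 3 had a positive response in the mutant and a negative one in N2, all at levels under 2 CPM. *Y94H6A.2* had 1.01, 0.971, 1.17 and 1.15 CPM in *osm-9(ok1677)* at 200 mM and 0.552, 0.749, 1.18 and 0.527 CPM at 51 mM, against 0.309 and 0.306 CPM in N2 at 200 mM and 0.802 and 1.09 CPM at 51 mM, an interaction of 2.11 ± 0.54 (SE; edgeR adjusted p = 1). The C-type lectin gene *clec-174* had an interaction of 1.9 ± 0.51 and *C04E12.5* of 2.21 ± 0.61 (SE), both with mutant responses within 0.11 of 0 and negative N2 responses.

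The 7 loci called with the replicate block differed in the extent of the response and had the same sign in both strains, with a mutant response of 0.13 for *T26H5.9* and -0.13 for *F11A5.9*. Without the block, edgeR called none of them, at adjusted p values of 0.997 to 1, and DESeq2 called 4, *hacd-1*, *C32H11.4*, *F11A5.9* and *cyp-13B1*. With the replicate number as a block across both strains, edgeR called none of them either, at a lowest adjusted p of 0.108 over all loci. *hacd-1*, a predicted hydroxyacyl-CoA dehydrogenase (chromosome V:1460369-1461613, WBcel235), had 82.6, 58.8, 58.5 and 59.2 CPM in *osm-9(ok1677)* at 200 mM and 115, 103, 118 and 112 CPM at 51 mM, against 24.1 and 30.7 CPM in N2 at 200 mM and 108 and 125 CPM at 51 mM. It fell by 0.79 in *osm-9(ok1677)* (edgeR adjusted p = 0.0285) and by 2.09 in N2 (adjusted p = 0.000948), on the log2 scale. The interaction was 1.3 ± 0.23 (SE), with the block 1.29 (adjusted p = 0.0171) and with DESeq2 1.31 (adjusted p = 0.00291). The strains had overlapping levels at 51 mM and separate levels at 200 mM.

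*catp-3*, a P-type ATPase of the sodium pump alpha subunit family (chromosome V:8076012-8079916), had 136, 66.9, 96.7 and 146 CPM in *osm-9(ok1677)* at 200 mM and 367, 232, 317 and 391 CPM at 51 mM, against 37 and 43.6 CPM in N2 at 200 mM and 245 and 317 CPM at 51 mM. It fell by 1.55 in *osm-9(ok1677)* (edgeR adjusted p = 0.0194) and by 2.8 in N2 (adjusted p = 0.00932), and the interaction was 1.25 ± 0.41 (SE; with the block 1.21, adjusted p = 0.0171). As for *hacd-1*, levels overlapped at 51 mM and the N2 libraries were the lower ones at 200 mM. The uncharacterized *C32H11.4* had 1.88, 2.16, 4.07 and 4.5 CPM in *osm-9(ok1677)* at 200 mM and 6.76, 6.12, 10.5 and 8.64 CPM at 51 mM, against 1.44 and 0.969 CPM in N2 at 200 mM and 15 and 18.8 CPM at 51 mM. Its interaction was 2.46 ± 0.54 (SE; with the block 2.42, adjusted p = 0.0313; with DESeq2 adjusted p = 0.0323), and it fell by 3.8 in N2 (edgeR adjusted p = 0.0078), with a mutant response of -1.34 that missed the threshold (adjusted p = 0.123). N2 was the higher strain at 51 mM and the lower one at 200 mM in every library. *F11A5.9*, also uncharacterized, had 51, 45.3, 31.3 and 48.1 CPM in *osm-9(ok1677)* at 200 mM and 50, 53.1, 44 and 44.7 CPM at 51 mM, against 36.2 and 34 CPM in N2 at 200 mM and 85.4 and 90.5 CPM at 51 mM. Its mutant response was -0.13 ± 0.14 and its N2 response -1.32 ± 0.2 (SE), an interaction of 1.2 ± 0.25 (SE; with the block 1.18, adjusted p = 0.0379; with DESeq2 adjusted p = 0.0323). N2 was above all mutant libraries at 51 mM, and the strains overlapped at 200 mM.

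The 3 negative calls were a lysozyme, a cytochrome P450 and an uncharacterized gene. *ilys-2*, an invertebrate-type lysozyme (chromosome IV:2467678-2468879), had 6.28, 9.97, 7.69 and 6.75 CPM in *osm-9(ok1677)* at 200 mM and 0.414, 1.25, 0.519 and 0.474 CPM at 51 mM, against 23.7 and 41.1 CPM in N2 at 200 mM and 0.200 and 0.569 CPM at 51 mM. It rose by 3.56 in *osm-9(ok1677)* (edgeR adjusted p = 0.0026) and by 6.38 in N2 (adjusted p = 0.000948), and the interaction was -2.82 ± 0.68 (SE; with the block -2.81, adjusted p = 0.0379). Levels at 51 mM overlapped and were a few counts in some libraries, and at 200 mM every N2 library was above every mutant library. The cytochrome P450 gene *cyp-13B1* (chromosome X:13406674-13409643) had 3.14, 3.24, 3.57 and 3.14 CPM in *osm-9(ok1677)* at 200 mM and 1.61, 1.19, 1.84 and 1.95 CPM at 51 mM, against 17.2 and 16.4 CPM in N2 at 200 mM and 1.95 and 2.58 CPM at 51 mM. It rose by 2.89 in N2 (edgeR adjusted p = 0.000948), and in *osm-9(ok1677)* the difference of 0.98 missed the threshold (adjusted p = 0.0596). Its interaction was -1.9 ± 0.32 (SE; with the block -1.91, adjusted p = 0.0379; with DESeq2 adjusted p = 0.000242). At 200 mM both N2 libraries were far above the mutant ones, and at 51 mM the lower of them met the mutant range.

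*T26H5.9*, uncharacterized, had 16.2, 17.3, 36 and 20.9 CPM in *osm-9(ok1677)* at 200 mM and 17.3, 18.9, 30.6 and 16 CPM at 51 mM, against 10.6 and 17.1 CPM in N2 at 200 mM and 2.2 and 5.12 CPM at 51 mM. Its interaction was -1.79 ± 0.59 (SE; with the block -1.85, adjusted p = 0.0171). Both N2 libraries at 51 mM lay below all the others, and the mutant libraries overlapped between salts. Each of the 7 calls was lost in some of the 6 block fits that left out 1 replicate pair, an alternative chosen after seeing the data: *hacd-1*, *catp-3*, *T26H5.9* and *cyp-13B1* passed in 5 of the 6, and *C32H11.4*, *F11A5.9* and *ilys-2* in 4. Their interactions kept their signs in all 6, with *C32H11.4* between 2.01 and 2.89, *ilys-2* between -3.25 and -2.53 and *T26H5.9* between -2.15 and -1.63.

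**Figure D4:**
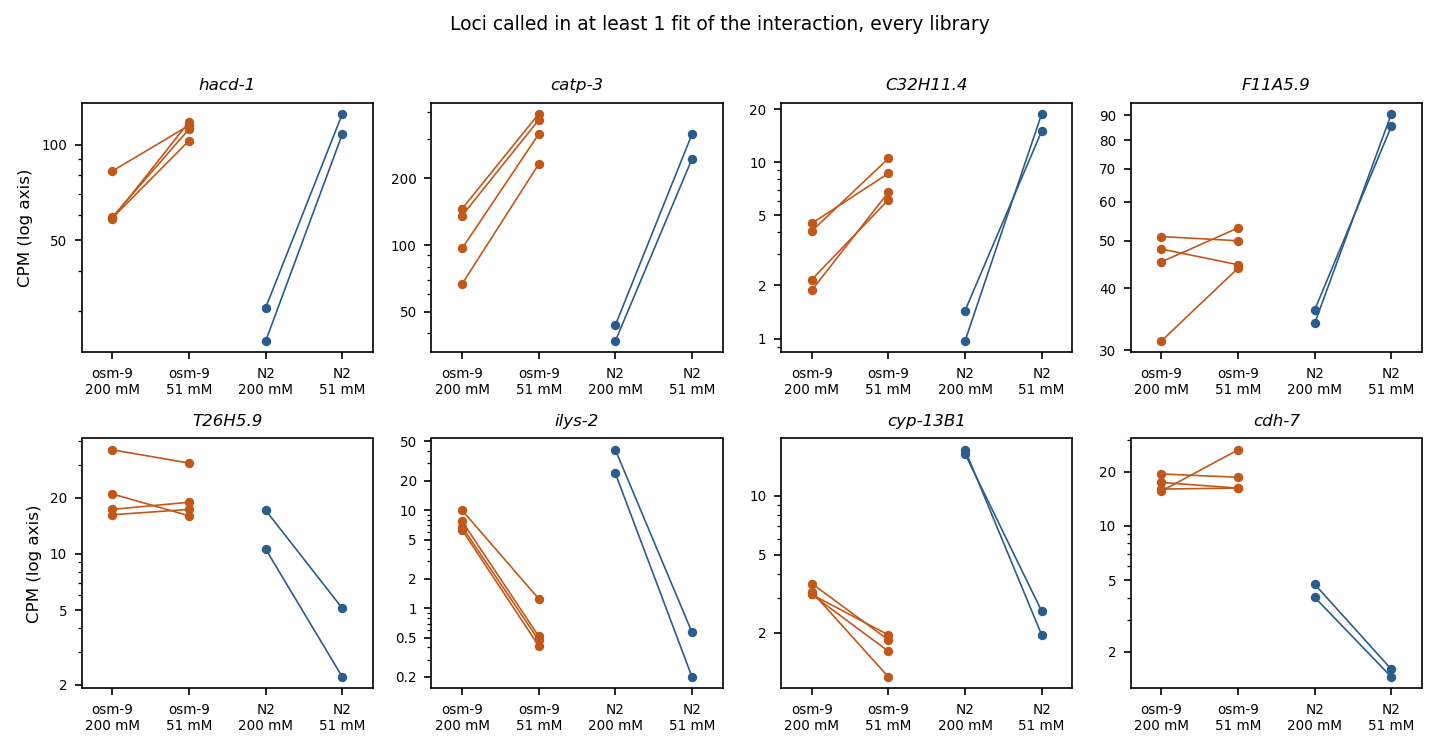
CPM on a log axis of the loci with a called interaction (replicate block or DESeq2) in each library, by strain and salt. For hacd-1, catp-3 and ilys-2 the strains overlap at 51 mM and are separate at 200 mM, whereas for cdh-7 all osm-9(ok1677) libraries lie above all N2 libraries.

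Other loci named by their p fell in N2 without passing the test in the mutant. *txt-11* had 2.46, 2.53, 4.07 and 2.56 CPM in *osm-9(ok1677)* at 200 mM and 10.7, 5.43, 7.03 and 6.38 CPM at 51 mM, against 0.515 and 0.663 CPM in N2 at 200 mM and 4.41 and 8.84 CPM at 51 mM, an interaction of 2.13 ± 0.55 (SE; edgeR adjusted p = 1). The dihydropyrimidinase gene *dhp-1* had 32, 32.4, 32.3 and 31.9 CPM in *osm-9(ok1677)* at 200 mM and 48.5, 44.6, 44.1 and 30.9 CPM at 51 mM, against 18.2 and 16 CPM in N2 at 200 mM and 36.6 and 58.9 CPM at 51 mM, an interaction of 1.09 ± 0.29 (SE). For both genes the strains overlapped at 51 mM, and N2 was the lower strain at 200 mM. *F17A9.4* had an interaction of 0.8 ± 0.2 (SE). Among the negative ones, *nspe-5*, of a nematode-specific peptide family, had 66 and 90 counts in N2 at 200 mM and 3 and 0 at 51 mM, whereas its counts in *osm-9(ok1677)* were 15, 7, 2 and 3 at 200 mM and 9, 2, 2 and 2 at 51 mM.

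Genes of osmolyte synthesis responded in the same direction in both strains. The 8 genes of glycerol and trehalose synthesis and inositol uptake had a median response of 0.69 in *osm-9(ok1677)* and 1.12 in N2, with no gene of opposite sign and a median interaction of -0.21. Of them, *gpdh-1* and the inositol transporter genes *hmit-1.1* and *hmit-1.3* rose in *osm-9(ok1677)* and *gpdh-2* in N2, and with the replicate block 6 rose in each (all loci tested: 2.02% in *osm-9(ok1677)* and 1.48% in N2). *gpdh-1*, the salt-induced glycerol 3-phosphate dehydrogenase, had 81.4, 52.9, 36.2 and 31.6 CPM in *osm-9(ok1677)* at 200 mM and 10.8, 15.5, 14.7 and 7.22 CPM at 51 mM, against 121 and 150 CPM in N2 at 200 mM and 19.6 and 47.4 CPM at 51 mM. It rose by 2.07 ± 0.37 in *osm-9(ok1677)* (SE; edgeR adjusted p = 0.039), and the N2 response was 2.01 ± 0.51 (adjusted p = 0.265). Its interaction of 0.06 ± 0.6 (SE), -0.1 with the block, had a 95% interval of -1.26 to 1.37 and was -0.72 without N2 replicate 2 at 51 mM and 0.56 without N2 replicate 1 at 51 mM. *gpdh-2*, the second such dehydrogenase, had 229, 216, 227 and 187 CPM in *osm-9(ok1677)* at 200 mM and 139, 140, 153 and 126 CPM at 51 mM, against 336 and 396 CPM in N2 at 200 mM and 127 and 189 CPM at 51 mM. Its interaction was -0.59 ± 0.22 (SE; edgeR adjusted p = 1; with the block -0.62, adjusted p = 0.0822), with levels that overlapped between strains at 51 mM and not at 200 mM. The inositol transporter gene *hmit-1.2* was at -0.73 ± 0.47 and the trehalose 6-phosphate synthase gene *tps-1* at -0.34 ± 0.24 (SE).

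The 36 epidermal antimicrobial peptide genes had a median interaction of -0.14. The same 3 of them, *nlp-28*, *nlp-29* and *cnc-7*, rose in each strain (all loci tested: 0.215% in *osm-9(ok1677)* and 0.0845% in N2). With the replicate block 5 rose and 5 fell in *osm-9(ok1677)* (all loci tested: 2.02% and 3.17%). In N2, 6 rose and 3 fell with the block (all loci tested: 1.48% and 1.76%). *nlp-29* had 117, 78.1, 82.3 and 92.2 CPM in *osm-9(ok1677)* at 200 mM and 17.1, 15.6, 14.9 and 14.2 CPM at 51 mM, against 120 and 135 CPM in N2 at 200 mM and 22.3 and 23.3 CPM at 51 mM. It rose by 2.58 in *osm-9(ok1677)* (edgeR adjusted p = 8.62e-06) and by 2.48 in N2 (adjusted p = 0.000546), an interaction of 0.1 ± 0.22 (SE). *nlp-31* lies in the same cluster on chromosome V and had 24.8, 21.5, 21.6 and 24.1 CPM in *osm-9(ok1677)* at 200 mM and 28.1, 22.2, 24.9 and 33.2 CPM at 51 mM, against 20.2 and 25.7 CPM in N2 at 200 mM and 14.2 and 14.7 CPM at 51 mM. It was lower at 200 mM in every mutant pair, though the mutant libraries overlapped between salts, and it was higher at 200 mM in each N2 pair. Its interaction was -0.9 ± 0.25 (SE; edgeR adjusted p = 1; with the block -0.88, adjusted p = 0.0621). *nlp-30*, of the same cluster, was at -1.59 ± 0.6 (SE; with the block -1.51, adjusted p = 0.0541) and the fungus-induced peptide gene *fip-6* at -1.26 ± 0.43 (SE). *cnc-7*, a caenacin, had 17.5, 10.7, 8.76 and 14.9 CPM in *osm-9(ok1677)* at 200 mM and 2.48, 0.687, 0.661 and 2.16 CPM at 51 mM, against 6.38 and 3.16 CPM in N2 at 200 mM and 0.0501 and 0.103 CPM at 51 mM. Those N2 levels at 51 mM are 1 and 2 counts, so the size of its N2 response is poorly determined.

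**Figure D5:**
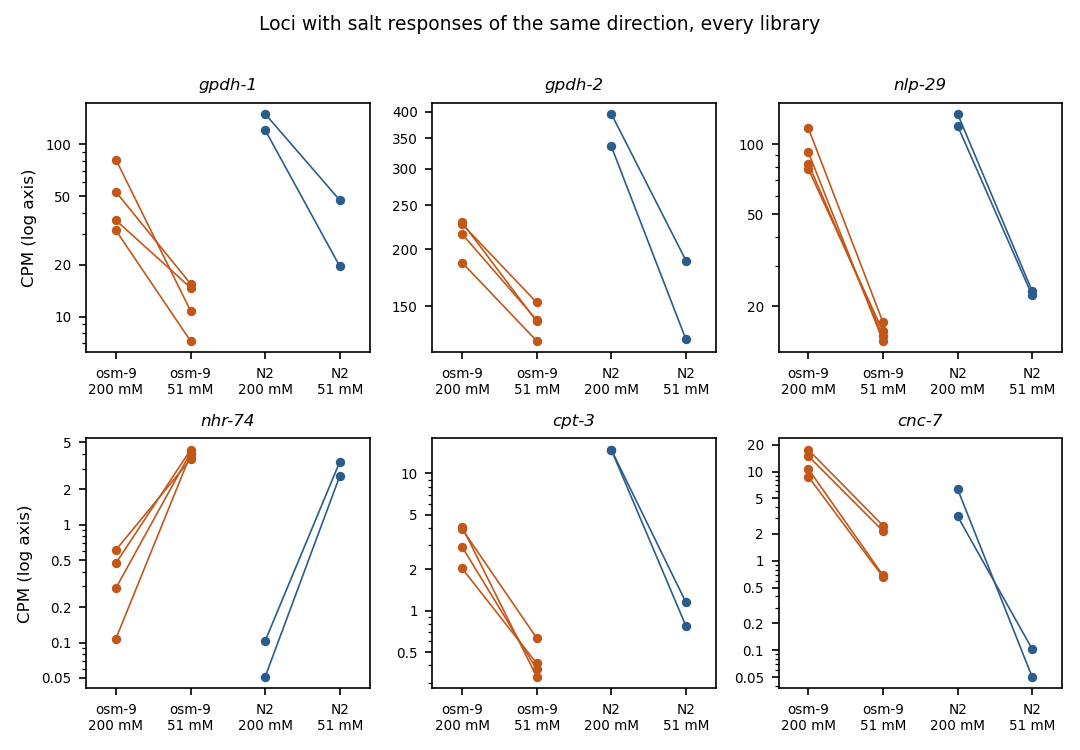
CPM on a log axis of loci that responded to salt in both strains and of osmolyte genes, in each library by strain and salt. The direction is the same in both strains for every locus drawn, and nlp-29 changed by 2.58 in osm-9(ok1677) and 2.48 in N2 on the log2 scale.

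Among the other loci called in both strains, fat metabolism was represented by *cpt-3*, a carnitine palmitoyltransferase, and *ech-7*, an enoyl-CoA hydratase. *cpt-3* had 2.03, 2.91, 4.07 and 3.92 CPM in *osm-9(ok1677)* at 200 mM and 0.414, 0.375, 0.330 and 0.632 CPM at 51 mM, against 14.8 and 14.8 CPM in N2 at 200 mM and 1.15 and 0.775 CPM at 51 mM. It rose by 2.87 in *osm-9(ok1677)* and by 3.93 in N2, an interaction of -1.07 ± 0.49 (SE; edgeR adjusted p = 1). *ech-7* fell by 1.11 in *osm-9(ok1677)* and by 1.23 in N2. The methionine sulfoxide reductase gene *msra-1* had 244, 217, 235 and 230 CPM in *osm-9(ok1677)* at 200 mM and 684, 566, 558 and 610 CPM at 51 mM, against 271 and 458 CPM in N2 at 200 mM and 909 and 1380 CPM at 51 mM, and its interaction was 0.27 ± 0.29 (SE). The nuclear receptor gene *nhr-74* fell by 3.4 in *osm-9(ok1677)* and fell in N2 too, where 2 counts and 1 count were left at 200 mM, too few to size its N2 response. Over the 84 tested genes of fatty acid metabolism the median interaction was -0.07. At 24 of them (28.6%) every *osm-9(ok1677)* pair response was below both N2 pairs, against 10.4% of all loci tested, and at 5 it was above. The acyl-CoA dehydrogenase gene *acdh-10* was at -0.79 ± 0.27, the enoyl-CoA hydratase gene *ech-4* at -0.42 ± 0.14 and the carnitine palmitoyltransferase gene *cpt-1* at -0.65 ± 0.26 (SE), each with an N2 response of 0.57 to 1.08 that missed the threshold.

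The detoxification lists differed among themselves. The 56 UDP-glucuronosyltransferases, which attach sugars to small molecules, had a median interaction of 0.24, with a median response of -0.07 in *osm-9(ok1677)* and -0.32 in N2. The mutant pair responses were above both N2 pairs at 20 of them (all loci tested: 7.81%) and below at 5. With the replicate block 6 rose and 13 fell in *osm-9(ok1677)*, and none rose and 16 fell in N2 (all loci tested: 2.02% rose and 3.17% fell in *osm-9(ok1677)*, and 1.48% rose and 1.76% fell in N2). *ugt-66* had 22.1, 21.5, 23 and 25.7 CPM in *osm-9(ok1677)* at 200 mM and 54.1, 44.7, 55.3 and 38.6 CPM at 51 mM, against 8.34 and 13.2 CPM in N2 at 200 mM and 43.1 and 51.4 CPM at 51 mM. It fell by 1.06 in *osm-9(ok1677)* and by 2.13 in N2 (edgeR adjusted p = 0.0186 and 0.00374), an interaction of 1.07 ± 0.28 (SE; with the block 1.1, adjusted p = 0.0625). *ugt-17* had an interaction of 0.62 ± 0.25 (SE). The list median was 0.03 without N2 replicate 2 at 51 mM and 0.4 without N2 replicate 2 at 200 mM.

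The 43 glutathione S-transferases had a median interaction of 0.0, with a few members apart. *gsto-1*, an omega class enzyme, had 107, 78.3, 72.3 and 83.4 CPM in *osm-9(ok1677)* at 200 mM and 33.8, 28.5, 32.6 and 37.8 CPM at 51 mM, against 74 and 48.6 CPM in N2 at 200 mM and 55.7 and 37.8 CPM at 51 mM. It rose by 1.36 in *osm-9(ok1677)* (edgeR adjusted p = 0.00832), with a difference of 0.39 in N2 (adjusted p = 1) and an interaction of 0.97 ± 0.31 (SE; with the block 0.97, adjusted p = 0.0541). *gst-13* had 24.5, 23.9, 25.7 and 25.3 CPM in *osm-9(ok1677)* at 200 mM and 40.5, 27.4, 31.8 and 29 CPM at 51 mM, against 25.8 and 27.6 CPM in N2 at 200 mM and 52.3 and 68.4 CPM at 51 mM, an interaction of 0.8 ± 0.24 (SE). The strains had like levels of *gst-13* at 200 mM and separate ones at 51 mM. The 9 superoxide dismutase, catalase and metallothionein genes, which handle oxygen radicals and metals, had a median of -0.33, with 8 below 0. The 56 cytochrome P450 genes had a median of 0.06, and *cyp-14A5*, which fell by 1.32 in *osm-9(ok1677)* (edgeR adjusted p = 0.0353) against an N2 response of -0.32, had an interaction of -1.0 ± 0.39 (SE).

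Substrate adaptors of ubiquitin ligases had positive medians with no calls. They were 0.11 for the 139 F-box A genes, 0.16 for the 79 BATH, MATH and Skp1-related genes and 0.39 for the 46 F-box B and C genes. The mutant pair responses were above both N2 pairs at 13 of the 79 and below at 1, above at 20 and below at 7 of the 139 F-box A genes, and above at 5 and below at 3 of the 46 F-box B and C genes (all loci tested: 7.81% above and 10.4% below). *fbxc-58* had 4.54, 4.42, 10.5 and 8.73 CPM in *osm-9(ok1677)* at 200 mM and 7.58, 4.93, 8.82 and 8.54 CPM at 51 mM, against 1.85 and 2.3 CPM in N2 at 200 mM and 4.11 and 9.77 CPM at 51 mM, an interaction of 1.65 ± 0.62 (SE; edgeR adjusted p = 1). The median of the F-box B and C list was -0.63 without N2 replicate 1 at 51 mM and 1.19 without N2 replicate 2 at 51 mM, so its sign rested on single libraries.

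The 12 small and inducible heat shock proteins, which hold or refold damaged proteins, had a median response of -0.64 in *osm-9(ok1677)* and -0.38 in N2. Their median interaction was -0.23, and it was -0.59 without N2 replicate 1 at 51 mM and 0.09 without N2 replicate 1 at 200 mM. With the replicate block 9 fell in *osm-9(ok1677)* and 3 in N2, against 3.17% and 1.76% of all loci tested. These calls rest on 4 mutant pairs and 2 N2 pairs, so the counts do not compare the strains. *hsp-70* had 58.7, 14.8, 16.3 and 25.1 CPM in *osm-9(ok1677)* at 200 mM and 119, 38.6, 68.2 and 71.3 CPM at 51 mM, against 81.9 and 26.3 CPM in N2 at 200 mM and 102 and 20.2 CPM at 51 mM. Each mutant pair was lower at 200 mM and the N2 pairs went opposite ways, for an interaction of -1.19 ± 1.02 (SE; with the block -1.48, adjusted p = 0.0541). The 12 cysteine cathepsins had medians of 0.44 in *osm-9(ok1677)* and 0.41 in N2.

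Genes of innate immunity were mixed. The 13 lysozymes had a median interaction of -0.17 and none had opposite signs. *ilys-3*, the neighbour of *ilys-2*, had 1.26, 3.07, 3.87 and 1.94 CPM in *osm-9(ok1677)* at 200 mM and 0.460, 1.81, 1.6 and 0.843 CPM at 51 mM, against 1.08 and 2.35 CPM in N2 at 200 mM and 0 and 0.103 CPM at 51 mM. *lys-2* was at 1.16 ± 0.49 (SE). Among the 16 CUB-like and *dod* genes, whose median interaction was 0.15, *dod-24* had 8.02, 4.04, 3.06 and 5.65 CPM in *osm-9(ok1677)* at 200 mM and 14, 8.49, 8.92 and 10.9 CPM at 51 mM, against 5.87 and 4.59 CPM in N2 at 200 mM and 20.8 and 23.6 CPM at 51 mM, an interaction of 1.06 ± 0.48 (SE; edgeR adjusted p = 1). With the replicate block 3 of the 16 fell in *osm-9(ok1677)* and 7 in N2, against 3.17% and 1.76% of all loci tested.

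Of the genes that regulate the osmotic response, *ogt-1*, the O-GlcNAc transferase, rose by 0.65 in N2 (edgeR adjusted p = 0.0396) with a mutant response of 0.4 (adjusted p = 0.0577), and its interaction was -0.25 ± 0.13 (SE). *osr-1* and *osm-8*, whose loss is known to switch on *gpdh-1*, had interactions of -1.46 ± 0.95 and -1.42 ± 0.97 (SE). The 14 regulators together had a median of -0.2. The TRPV channel gene *ocr-1* was at -1.5 ± 0.69 (SE) with fewer than 2 CPM in every library, and *osm-9* itself was at -1.16 ± 0.47 (SE).

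Housekeeping lists lay close to the median of all loci. The median interaction was -0.03 for 29 proteasome subunits, -0.04 for 70 cytosolic ribosomal proteins, 0.03 for 36 translation factors, -0.03 for 7 chaperonin subunits, -0.01 for 29 respiratory chain subunits and 0.07 for 20 V-type proton pump subunits. Tissue markers were at -0.25 for body wall muscle, -0.13 for neurons, -0.2 for intestine, -0.02 for oocyte and eggshell genes and -0.09 for major sperm proteins. All 12 muscle and all 12 neuronal markers had a negative interaction, but without N2 replicate 2 at 200 mM their medians were 0.08 and 0.04.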

How the data were processed

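The authors aligned paired-end reads to the WS235 assembly with TopHat 1.4.1, assigned them to annotated genes with Cufflinks 2.0.1 and tested read counts with edgeR 3.2.4 (submitters' processing notes and the study's methods). The deposited file holds unnormalized counts per locus; whether counting used strand is not given in the sources used here, and 733 of the tested loci join several genes. Names and coordinates are those of Ensembl 115 (WBcel235) and could be given to 15221 of the 15383 loci.

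In R 4.3.3, *rrn-3.1* was removed, low counts were filtered with filterByExpr, and edgeR 4.0.16 was fitted to the 4 groups of all 12 libraries with TMM factors of 0.926 to 1.07. The interaction was tested by quasi-likelihood with Benjamini-Hochberg adjustment at 0.05. DESeq2 1.42.0, other scalings and filters, replicate blocks and left-out libraries were the alternatives. CPM values use those factors. Per the study's methods, the libraries of a group are independent experiments. Deviations of same-numbered libraries correlated at 0.70, 0.52, 0.81 and 0.59 in *osm-9(ok1677)* and 0.52 in N2. On this basis the numbers were taken to pair the salts within a strain. Libraries of different number were not compared in this way, so the pairing itself was not tested. With 2 N2 libraries a salt, both N2 pairs must give the same correlation. Across strains, same-numbered libraries correlated at 0.32 to 0.58 for replicate 1 and 0.08 to 0.49 for replicate 2. The block nested in strain is the one whose values stand beside the results, and pair responses are log2 differences within such a pair. No libraries were identical, and 40.9 to 70.8% of loci differed between replicates beyond sampling noise.

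Named loci were the 10 with the lowest p in each direction of the interaction, the 3 members of each described list with the lowest p, *osm-9* and *gpdh-1*, among loci of 1 named gene. Other names (loci called in both strains, *catp-3*, *T26H5.9*, *ins-11*, *hmit-1.1* and *hmit-1.3*) were chosen after their values were seen. All members and lists were chosen with earlier results of these data known.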

Additional observations from a re-analysis of the deposited data

Results flagged for a closer look

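Of 318 sets of 4 *osm-9(ok1677)* libraries looked at, 13 (4.09%) had 1 library far from the other 3, where chance puts about 5% there. At 200 mM, replicate 1 had 82.6 CPM of *hacd-1* against 58.5 to 59.2 in the others, replicate 3 had 4.07 CPM of *txt-11* against 2.46 to 2.56, replicate 2 had 69.1 CPM of *tps-1* against 101 to 107, and replicate 4 had 0.680 CPM of *ins-11* against 0.193 to 0.270. At 51 mM, replicate 4 had 1.37 CPM of *clec-174* against 0.781 to 0.874, replicate 2 had 1.25 CPM of *ilys-2* against 0.414 to 0.519, and replicate 1 had 0.414 CPM of *nspe-5* against 0.0944 to 0.125.

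Summed levels stood apart in the same way. At 200 mM, replicate 2 had 1200 CPM of patched-related genes against 1280 in the others, and replicate 1 had 497 CPM of histones against 636 to 661 and 1940 CPM of lysozymes against 1670 to 1690. At 51 mM, replicate 4 had 947 CPM of epidermal antimicrobial peptides against 767 to 797, and replicate 1 had 3650 CPM of intestine markers against 5180 to 5400 and 5950 CPM of aspartyl proteases against 8150 to 8260.

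The responses of the strains differed by a test of the difference itself, in the replicate block or in DESeq2, at 8 loci. Without the block, the interaction was 2.46 for *C32H11.4*, 1.3 for *hacd-1*, 1.25 for *catp-3*, 1.2 for *F11A5.9*, -2.82 for *ilys-2*, -1.9 for *cyp-13B1*, -1.79 for *T26H5.9* and -1.69 for *cdh-7*. None of these 8 passed edgeR's adjusted threshold without the block.

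The locus set aside, *rrn-3.1*, had at least 136083 counts in each of the 8 libraries outside the *osm-9(ok1677)* 51 mM group and 0 in all 4 libraries of that group. What made these zeros was not tested.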

How the results depend on the processing

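The interaction called no locus with edgeR under RLE factors, without the filter on low counts, with a stricter filter, with a block across strains, or without any single library. DESeq2 called 3 positive and 2 negative. Among these, *cdh-7* alone had fitted responses of opposite sign, with a mutant response near 0 at -0.18 ± 0.17 (SE). The replicate block nested in strain called 4 and 3. That block called 797 responses in *osm-9(ok1677)* and 498 in N2, the replicate block across strains 379 and 222, DESeq2 201 and 129, and replicates 1 and 2 alone 1 and 11. Without single libraries, 19 to 53 responses were called in *osm-9(ok1677)* (fewest without replicate 4 at 200 mM) and 6 to 32 in N2 (fewest without N2 replicate 1 at 200 mM). Without *osm-9(ok1677)* replicates 2 and 3, chosen after seeing the data, 5 responses were called in that strain, with fewer samples, and the cuticle and molting median was -0.34. Without single libraries that median ran from -0.94 to -0.12. The interaction of *gpdh-1* turned to -0.10 with the replicate block and ran from -0.72 to 0.56 without single libraries. Likewise *ech-7* ran from -0.01 to 0.24, *msra-1* from -0.06 to 0.71 and *nlp-29* from -0.03 to 0.20. The causes were not tested. Having 2 N2 libraries a salt and low counts at many loci limits the precision. Differences whose interval reached 0 could not be told from 0. Larger ones, such as *hacd-1* at 1.3 with an interval of 0.79 to 1.8, also missed edgeR's adjusted threshold without the block.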
